A study of Mus musculus with 54 samples.

Results

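The forkhead family of transcription factors was followed across mouse embryonic stem cell lines that differ in EZH2, the histone methyltransferase within Polycomb repressive complex 2 (PRC2). Members were the protein-coding genes of GENCODE M21 whose symbol is Fox followed by 1 lower-case letter and a number, without Foxa1 and Foxa2, which gave 42 genes of the 55401 in the table of read counts and of its 21897 protein-coding genes. All lines descend from a parental line with neither Ezh2 allele deleted (parental, named flfl in the read counts). Loss of 1 allele gave the heterozygous line (het, Ezh2 fl/Δ), and every further line is het with an added EZH2, either the wild type (WT) or a form with the substitution A677T, R679C, K634E, K563E or A733T. The series concerns Weaver syndrome, an overgrowth syndrome caused by EZH2 variants, and its design text counts 5 Weaver variants and a growth restriction variant. From general knowledge A733T is taken as the growth restriction variant, and the other 4 lines are called the Weaver lines. The labels do not say whether a line is a single clone. Each line was sequenced undifferentiated (mESC) and after differentiation, in which 2i and LIF were withdrawn and all-trans retinoic acid was added (ATRA). Each line and state has 3 libraries, which makes 48 in 16 groups.

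Forkhead proteins bind DNA through a winged-helix domain. Many of them, such as FOXC, FOXF and FOXL proteins, direct the formation of single tissues, and their genes are largely silent in embryonic stem cells, often in CpG-rich chromatin that PRC2 marks by methylating lysine 27 of histone H3. Others act in most cells: FOXO proteins are held out of the nucleus when insulin and growth factors activate AKT, and FOXM1 drives genes of mitosis. FOXK proteins, FOXJ2, FOXJ3, FOXN2, FOXN3, FOXP1 and FOXP4 are broadly expressed regulators, many of them repressors. In pluripotent cells FOXD3 sustains the undifferentiated state and FOXH1 carries Nodal signals together with SMAD proteins.

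The 24 mESC libraries contain between 15361598 and 29614420 counts each, and the 24 ATRA libraries between 15612700 and 31338825. Summed over 7 markers of pluripotent cells, the level was 4055 to 5295 CPM (read counts scaled to library size, with TMM factors for composition) in the mESC libraries and 514 to 886 CPM in the ATRA libraries. Within mESC the sum was 4055 to 4740 CPM in the Weaver lines against 5017 to 5152 CPM in WT. Marker sums, here and below, mostly follow the most abundant genes of a list and carry no correction for GC content. Counts for Ezh2 were lowest in het (280.4 CPM in mESC) and higher in WT (439 CPM) and in the Weaver lines (488 to 560 CPM by line), and counts of the added EZH2 cannot be told from those of the endogenous gene. A733T had 360 CPM in mESC, below WT. In ATRA it had 275 CPM, against 362 CPM in WT and 279 CPM in parental. In comparisons with WT, the substitution and the level of Ezh2 therefore cannot be told apart. Markers of extraembryonic endoderm, 8 genes, summed to 60.7 to 98.2 CPM in the mESC libraries of the Weaver lines, against 154 to 167 CPM in WT and 157 to 227 CPM in parental, het and A733T, and Sox17 was below 0.1 CPM in A677T, K634E and K563E and Gata6 in K634E and K563E. In ATRA the same sum was 165 to 209 CPM in the Weaver lines, 355 to 401 CPM in WT and 373 to 405 CPM in A733T. Libraries also differed in how their levels followed GC content, here called GC bias, whose source was not tested. Each library's log2 levels were set against the average library, and the Spearman correlation of that deviation with transcript GC, taken over genes, was 0.46 to 0.67 in the WT libraries of mESC and ran from -0.68 in A677T replicate 3 and -0.67 in K634E replicate 2 to 0.067 in the Weaver lines, and in ATRA the lowest value was -0.71, in K634E replicate 3. Fold changes carried the same trend, as the correlation of transcript GC with the Weaver mean against WT was -0.67 over 10503 genes in mESC and -0.36 over 10951 genes in ATRA. For the difference of that effect between the states, ATRA minus mESC, the correlation was 0.60 over 10888 genes. Forkhead transcripts are GC-rich, with a median of 55.3% over the 24 members tested in mESC against 50.3% over all genes tested. Results below are therefore also given with each library's GC trend fitted and taken out (the GC correction) where that ends or turns a call. In mESC the trend was higher in every WT library than in every Weaver library, so trend and line cannot be told apart. The correction can thus also take out or add a difference between lines.

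The promoters of 5 members on which the results below turn are shown first, as the 250 bases before the annotated start of transcription. RefSeq's table for GRCm38.p6 (mm10) holds a promoter for 26 of the 42 members. CpG dinucleotides are in capitals, since CpG-rich promoters are the usual sites of PRC2 in stem cells. The Foxp1 sequence precedes a RefSeq start that lies 1728 bases inside the gene of GENCODE.

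Foxd1 promoter, chr13:98353995-98354244, plus strand: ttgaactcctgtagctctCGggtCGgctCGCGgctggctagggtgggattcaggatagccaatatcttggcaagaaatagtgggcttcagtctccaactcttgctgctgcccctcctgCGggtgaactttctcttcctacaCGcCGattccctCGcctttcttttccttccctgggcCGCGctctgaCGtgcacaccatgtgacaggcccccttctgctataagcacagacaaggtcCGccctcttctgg

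Foxn4 promoter, chr5:114273762-114274011, minus strand: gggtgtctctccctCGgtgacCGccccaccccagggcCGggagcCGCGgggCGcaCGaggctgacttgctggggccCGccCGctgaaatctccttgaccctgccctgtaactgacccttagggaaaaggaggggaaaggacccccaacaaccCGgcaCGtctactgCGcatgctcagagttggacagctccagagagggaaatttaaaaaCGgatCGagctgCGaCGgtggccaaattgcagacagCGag

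Foxi3 promoter, chr6:70956356-70956605, plus strand: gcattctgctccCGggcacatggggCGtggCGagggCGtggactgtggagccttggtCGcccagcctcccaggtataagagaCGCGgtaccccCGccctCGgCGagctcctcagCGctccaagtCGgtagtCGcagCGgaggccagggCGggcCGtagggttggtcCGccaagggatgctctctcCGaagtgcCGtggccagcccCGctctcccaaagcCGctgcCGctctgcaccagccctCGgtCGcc

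Foxp1 promoter, chr6:99520994-99521243, minus strand: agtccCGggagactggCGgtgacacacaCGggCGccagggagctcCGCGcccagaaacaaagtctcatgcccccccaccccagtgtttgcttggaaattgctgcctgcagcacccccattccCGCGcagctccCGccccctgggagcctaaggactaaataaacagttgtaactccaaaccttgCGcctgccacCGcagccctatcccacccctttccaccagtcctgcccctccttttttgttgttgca

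Foxc1 promoter, chr13:31806396-31806645, plus strand: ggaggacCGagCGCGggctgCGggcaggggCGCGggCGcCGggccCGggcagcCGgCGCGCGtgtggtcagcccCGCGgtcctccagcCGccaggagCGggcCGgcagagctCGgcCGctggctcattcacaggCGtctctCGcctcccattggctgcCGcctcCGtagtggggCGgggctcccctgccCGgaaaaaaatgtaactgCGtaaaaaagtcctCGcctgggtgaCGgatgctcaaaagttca

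These stretches hold 12 CpG in Foxd1, 17 in Foxn4, 24 in Foxi3, 11 in Foxp1 and 29 in Foxc1. Over windows of 300 bases (250 before and 50 after the start), the 26 members had a median of 22 CpG, from 3 to 59, against 7 over all 32851 promoters of the table, and 21 of the 26 lay above that median. The forkhead core motif TGTTTAC, searched on both strands, was in none of the 26 windows and in 3.65% of all promoters. The retinoid receptor motif AGGTCA, searched likewise, was in 4 members (Foxe3, Foxi2, Foxk2 and Foxn3) and in 16.3% of all promoters. The RefSeq start used for Foxn3 lies 113508 bases inside the gene of GENCODE, so its window is not at the GENCODE start. Those used for Foxp3 and Foxj3 lie 6032 and 2657 bases inside. Motif matches are descriptions of letters in these windows only.

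The family split into widely expressed members and members close to silence. By the median over lines, 14 members were at 10 CPM or more in mESC, 7 were between 1 and 10 CPM and 21 were below 1 CPM, and in ATRA the numbers were 13, 6 and 23. Per kilobase of exon, the scale on which genes can be set side by side, Foxp4 (38.7 CPM per kb), Foxh1 (33.1), Foxm1 (26.2), Foxk2 (19.4), Foxo4 (15.6) and Foxo3 (13.4) led in mESC. In ATRA the order was Foxh1 (42.8), Foxo4 (30.5), Foxm1 (27.1), Foxp1 (26.5), Foxp4 (23.8) and Foxk2 (23.2), and the steps from Foxm1 to Foxp1 and from Foxp4 to Foxk2 are smaller than the spread of these genes between lines. In mESC 18 members reached 1 CPM in no library. These 18 did not pass the filter on low counts there, which left 24 members to test, and in ATRA 11 members did not pass and 31 were tested.

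**Figure D1:**
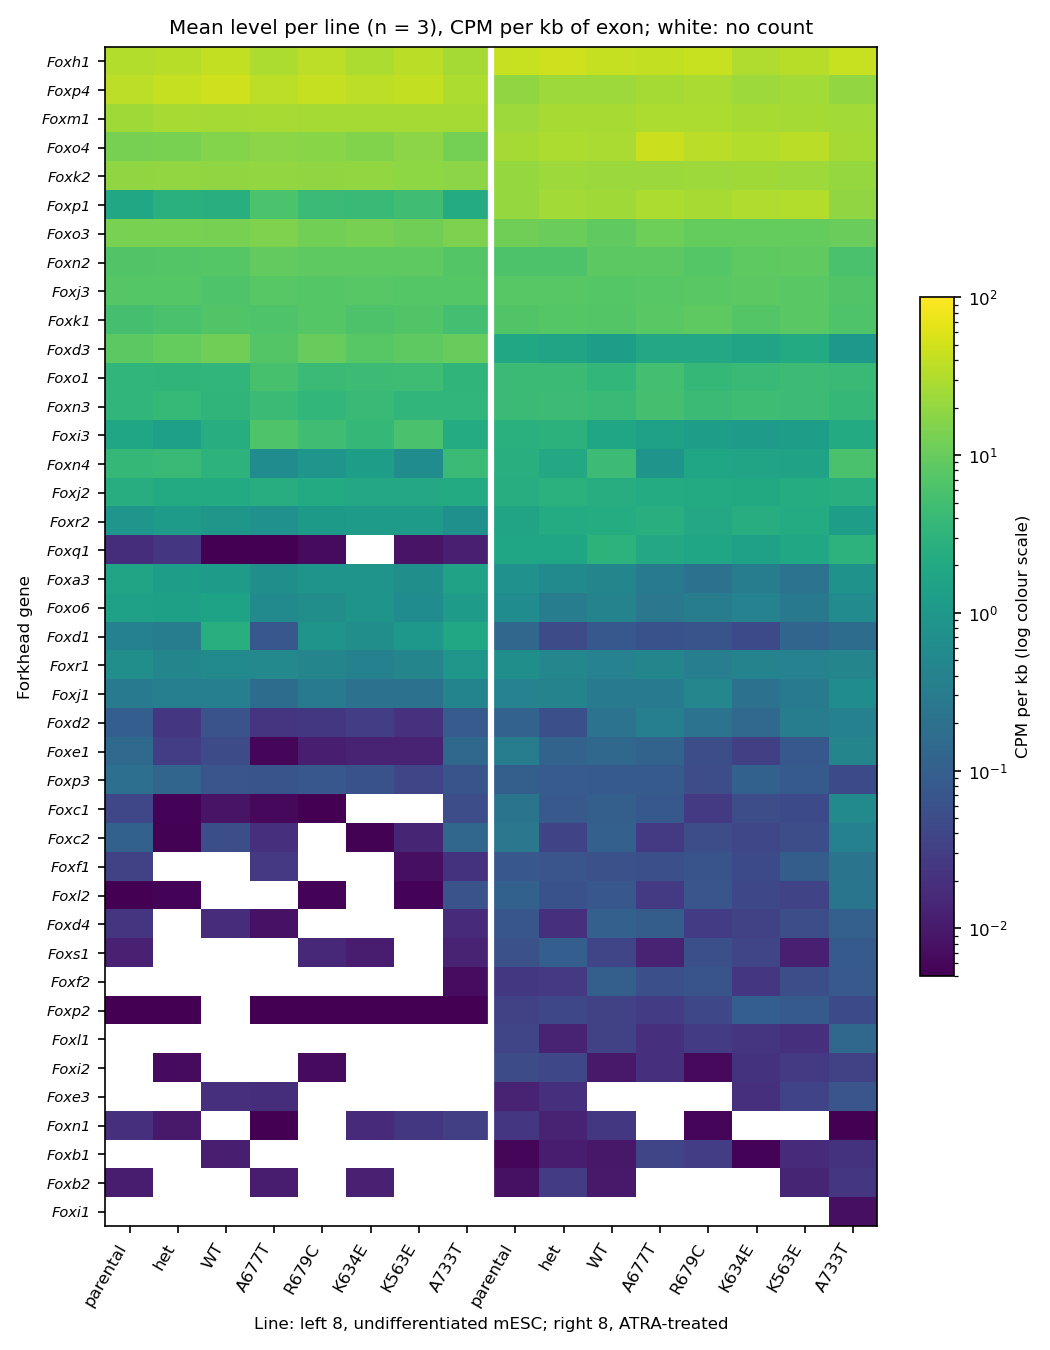
Mean level of 41 forkhead genes in each line (n = 3), in CPM per kb of exon on a log colour scale that ends at 0.005 CPM per kb, with the 8 lines of mESC on the left and of ATRA on the right. White cells had no count. Genes at the top, such as Foxh1, Foxp4 and Foxm1, are bright in every line, and the genes at the bottom gain counts in the ATRA columns.

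A gene was called changed at an adjusted p under 0.05 in edgeR's quasi-likelihood test with Benjamini-Hochberg adjustment over all genes tested. In mESC, 6 members were higher and 7 lower in the mean of the 4 Weaver lines than in WT, of 24 tested, against 21.4% of all genes higher and 22.9% lower. The GC correction changed the split to 12 higher and 3 lower, with 22.0% and 16.5% of all genes. Singly, A677T had 15 changed members (44.6% of all genes), R679C 6 (23.7%), K634E 11 (29.3%) and K563E 10 (34.5%). By direction, A677T went from 7 higher and 8 lower to 11 and 4 with the GC correction (23.5% and 16.3% of all genes), and R679C from 3 and 3 to 10 and 3 (14.4% and 9.96%). K634E went from 6 and 5 to 10 and 2 (10.4% and 8.24%), and K563E from 5 and 5 to 10 and 3 (21.2% and 14.3%). Without WT replicate 3 the K634E count was 6, and without K563E replicate 3 the K563E count was 6. The A733T line had 3 members higher (10.7% of all genes) and 4 lower (8.64%) than WT. The het line had 1 higher (1.17%) and 1 lower (2.26%) than parental, or 1 in all without het replicate 3 or parental replicate 1, and 3 higher and 1 lower with the GC correction (2.91% and 3.62% of all genes). WT had 2 higher (5.22%) and 1 lower (6.84%) than het, or 1 in all without het replicate 3, and 4 higher and 1 lower with the GC correction (12.5% and 9.27%). The Weaver lines had 7 higher (24.4%) and 6 lower (26.7%) than het, or 14 and 5 with the GC correction (30.7% and 23.1%). The members are taken singly below.

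In ATRA, 6 members were higher (8.43% of all genes) and 6 lower (12.1%) in the Weaver lines than in WT, of 31 tested, or 10 and 4 with the GC correction (16.3% and 12.2% of all genes). Singly, A677T had 8 changed members (19.4%), R679C 7 (10.3%), K634E 8 (15%) and K563E 8 (20.5%). By direction, A677T went from 6 higher and 2 lower to 10 and 1 with the GC correction (18.02% and 11.6%), and R679C from 3 and 4 to 5 and 4 (11.4% and 7.405%). K634E went from 4 and 4 to 11 and 2 (8.21% and 6.52%), or 5 and 3 with DESeq2, and K563E from 5 and 3 to 11 and 3 (15.6% and 10.9%). The K634E count was 5 without K634E replicate 3 and 4 without WT replicate 2. A733T had 8 higher (10.4%) and 4 lower (7.33%), which became 6 and 9 with the GC correction (11.1% and 17.99%), and 7 in all without A733T replicate 2 or without WT replicate 3. The het line had 2 higher (2.2%) and 6 lower (4.05%) than parental, or 7 and 5 with the GC correction (6.12% and 5.28%) and 3 and 4 with DESeq2. That count was 3 without het replicate 1, 2 or 3 or parental replicate 1 and 4 without parental replicate 2. WT had 3 higher (7.64%) and 3 lower (8.74%) than het, or 2 in all without WT replicate 3. The Weaver lines had 4 higher (20.8%) and 7 lower (24.9%) than het, or 9 and 6 with the GC correction (27.2% and 23.01%). Comparisons with WT share the 3 WT libraries of a state and those with het share the het libraries, so their results are not independent of each other. The labels do not say that replicates are separate cultures, so p-values measure only the spread between these libraries.

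Among the factors of single tissues, Foxd1 and Foxn4 were lower in all 4 Weaver lines than in WT in mESC and Foxi3 was higher. Foxd1 (chr13:98354242-98359305, plus strand), a factor of kidney stroma and of the developing retina, was high in a pair of lines only. Its level in mESC was 13.6, 10.9 and 13.2 CPM in the WT libraries and 7.82, 10.6 and 10.1 CPM in A733T. The libraries of parental cells had 2.02, 1.85 and 1.94 CPM and those of het 2.18, 1.58 and 1.3 CPM. A677T was lowest, at 0.428, 0.434 and 0.252 CPM, below every library of the other lines. R679C had 4.67, 3.63 and 4.34 CPM, K634E 3.42, 2.85 and 3.903 and K563E 4.72, 5.64 and 4.54, which lie between het and WT with no overlap with either. In bulk RNA, fewer cells with a transcript and less transcript per cell cannot be told apart.

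Foxd1 was thus 5.38-fold lower in the Weaver mean than in WT (log2 fold change -2.43, SE 0.12, adjusted p = 4.43e-14), from -1.30 in K563E to -4.99 in A677T, each past the threshold. WT itself exceeded het by 7.51-fold (log2 fold change 2.91, SE 0.18, adjusted p = 1.66e-11). Against het, the line they were made from, the Weaver lines were not lower on the whole: the value was 0.48, adjusted p = 0.0291, with A677T below het and the other 3 lines above it, and this call was lost on leaving out any of 4 libraries, A677T replicates 1 and 2 and het replicates 2 and 3 (0.0553 to 0.2399), when low counts were kept (0.0627) and with only the groups compared (0.0501). A733T did not pass against WT (-0.38, adjusted p = 0.0678). After ATRA Foxd1 was at 0 to 1.26 CPM over all 24 libraries, with each line overlapping at least 1 other, and it had fallen in WT (log2 fold change -4.93, SE 0.32, adjusted p = 3.01e-18, or -5.64 without ATRA WT replicate 2) and in parental (-1.55).

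Foxn4 (chr5:114254164-114273807, minus strand), which directs retinal progenitors and spinal interneurons, was low in the Weaver lines against every other line in mESC. The WT libraries had 9.21, 9.53 and 11.7 CPM, het 13.3, 13.98 and 14.00, parental 14.5, 9.89 and 13.1 and A733T 12.5, 15.3 and 14.9 CPM. The Weaver libraries had 1.59, 2.22 and 2.52 CPM in A677T, 3.05, 3.18 and 2.82 in R679C, 4.09, 4.39 and 3.84 in K634E and 2.06, 2.17 and 2.11 in K563E, with no overlap with the 12 others. The mean was 3.61-fold below WT (log2 fold change -1.85, SE 0.11, adjusted p = 3.67e-13) and 4.91-fold below het (log2 fold change -2.30, SE 0.10, adjusted p = 3.44e-16). In A733T it exceeded WT (log2 fold change 0.52, SE 0.12, adjusted p = 0.00447), and in WT it was below het (-0.44, adjusted p = 0.0184). The latter call was lost on leaving out any of 4 libraries, WT replicates 1 and 2 and het replicates 2 and 3 (0.0573 to 0.102).

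In ATRA Foxn4 kept that order among the Weaver lines and WT, while het moved to the low side. WT had 15.4, 15.9 and 14.1 CPM and A733T 19.3, 19.8 and 20.3. The parental libraries had 9.1, 8.29 and 9.17 CPM and het 6.67, 6.28 and 6.79. The Weaver libraries ran from 2.57 to 7.37 CPM with a median of 4.99, with A677T the lowest line at 2.85 ± 0.272 CPM (SD, n = 3). They were lower than WT (log2 fold change -1.70, SE 0.09, adjusted p = 1.35e-13) and than het (log2 fold change -0.49, SE 0.10, adjusted p = 0.000205), and WT was higher than het (log2 fold change 1.21, SE 0.12, adjusted p = 2.82e-08). Foxn4 fell from mESC to ATRA in parental cells (-0.50) and rose in WT (0.58), a difference between lines that was not tested. A733T stood above WT in ATRA (0.38, adjusted p = 0.0157), a call lost on leaving out A733T replicate 3 (0.0751) or WT replicate 3 (0.0821), when low counts were kept (0.0521) and with the GC correction (0.0591). Het was below parental in ATRA (-0.43, adjusted p = 0.0274), lost on leaving out any of 5 libraries, het replicates 1, 2 and 3 and parental replicates 1 and 3 (0.0624 to 0.116) and when low counts were kept (0.0773).

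Foxi3 (chr6:70956531-70961066, plus strand), a factor of the ear and pharyngeal arch ectoderm, moved the other way in mESC. Levels were 3.09, 3.19 and 2.76 CPM in WT, 1.86, 1.82 and 1.47 in het, 2.46, 1.85 and 2.44 in parental and 1.95, 3.105 and 3.603 in A733T. The Weaver lines had 7.28, 10.7 and 7.62 CPM in A677T, 5.85, 6.501 and 5.802 in R679C, 5.49, 4.17 and 4.43 in K634E and 7.204, 8.46 and 6.76 in K563E, all above every other library. The mean exceeded WT 2.21-fold (log2 fold change 1.15, SE 0.15, adjusted p = 1.12e-06) and het 3.91-fold (log2 fold change 1.97, SE 0.17, adjusted p = 2.18e-10). WT also exceeded het (0.82, adjusted p = 0.0115), a call lost on leaving out het replicate 3 (0.0841). The K634E value alone (0.66) lost its call on leaving out K634E replicate 1 (0.0696) or WT replicate 3 (0.0574).

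In ATRA the order of Foxi3 was different. The het libraries had 3.796, 3.85 and 3.47 CPM, parental 3.02, 3.72 and 3.502, A733T 2.42, 2.92 and 2.89 and WT 2.73, 1.94 and 2.102 CPM, and the Weaver libraries ran from 0.977 to 2.09 CPM with a median of 1.66. The Weaver lines were below het (log2 fold change -1.18, SE 0.16, adjusted p = 5.01e-07) and did not pass against WT (-0.45, adjusted p = 0.06801). WT was below het (-0.73, adjusted p = 0.0123), a call lost on leaving out WT replicate 2 (0.0655) or WT replicate 3 (0.0555). The effect of the Weaver lines against WT differed between the states in the fit over both (log2 fold change -1.56, SE 0.23, adjusted p = 6.17e-06 for ATRA minus mESC).

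**Figure D2:**
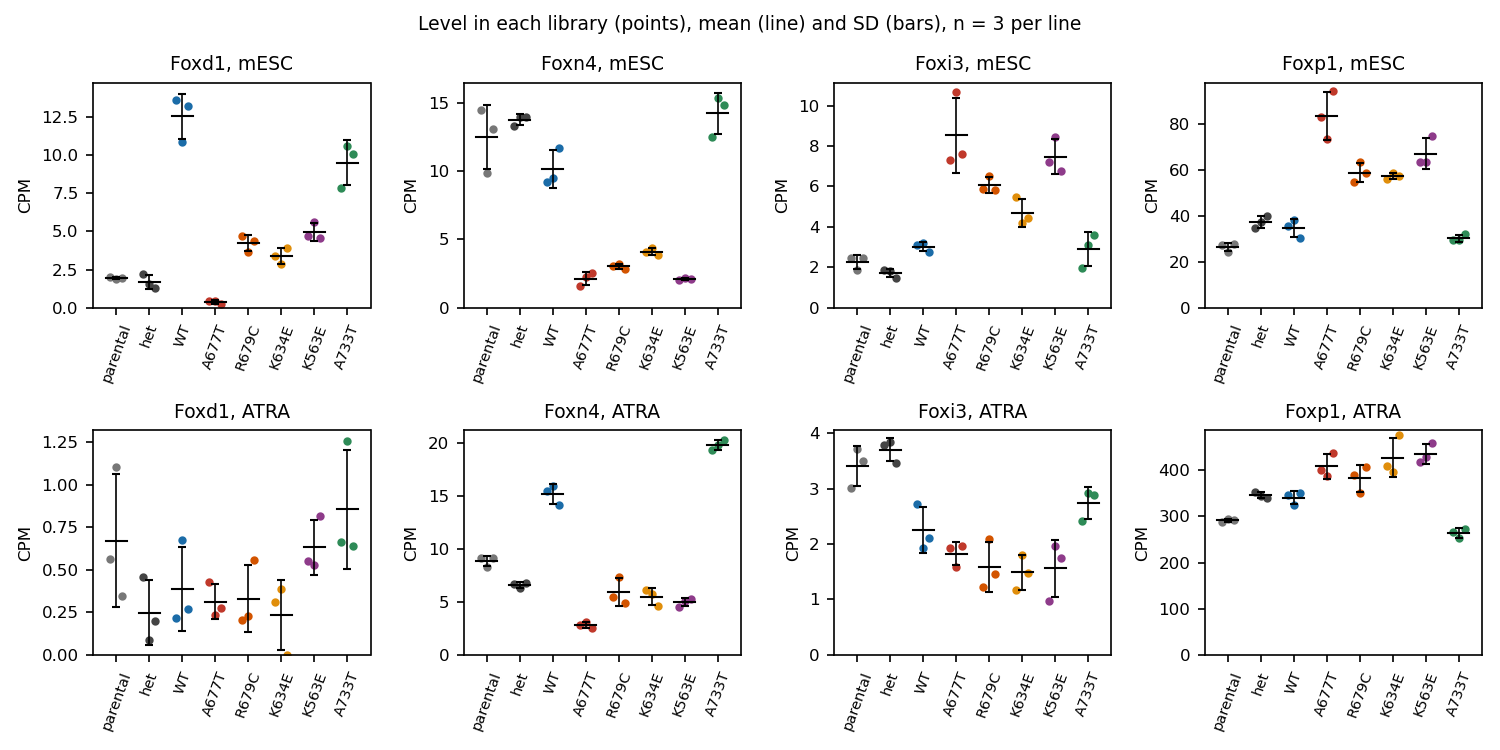
Level in CPM of Foxd1, Foxn4, Foxi3 and Foxp1 in each library (points) with the mean and SD of the 3 libraries of a line, in mESC (top) and ATRA (bottom); each panel has its own axis from 0. In mESC the 4 Weaver lines share low Foxn4 and high Foxi3 and Foxp1, while Foxd1 is high in WT and A733T.

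Foxc1, Foxc2, Foxe1 and Foxl2 were present at low levels, with the highest mean after ATRA in A733T. Foxc1 (chr13:31806633-31812476, plus strand) and Foxc2 (chr8:121116171-121118895, plus strand), factors of paraxial mesoderm, vessels and the eye, were not tested in mESC, where no library exceeded 0.462 and 0.542 CPM. In ATRA Foxc1 had 3.203, 3.68 and 3.32 CPM in A733T, 1.34, 1.61 and 1.04 in parental, 0.709, 0.435 and 0.582 in WT and 0.459, 0.598 and 0.352 in het, with the Weaver libraries from 0.152 to 0.512 CPM with a median of 0.292. Its level in A733T was 5.97-fold that in WT (log2 fold change 2.58, SE 0.26, adjusted p = 6.56e-08), above every other library of the state. Het was lower than parental (log2 fold change -1.48, SE 0.28, adjusted p = 0.000905), and the Weaver mean was lower than WT (-1.02, adjusted p = 0.00861), lost on leaving out WT replicate 1 (0.0935), with R679C alone at -1.81. The Weaver mean was also below het (-0.77, adjusted p = 0.0287), lost on leaving out K634E replicate 2 (0.0536), het replicate 1 (0.0766) or het replicate 2 (0.197), with DESeq2 (0.0643), when low counts were kept (0.113) and with the GC correction (0.115). Foxc2 had 1.09, 1.03 and 1.07 CPM in A733T, 0.808, 0.754 and 0.543 in parental, 0.545, 0.158 and 0.134 in WT and 0.184, 0.128 and 0 in het. It was higher in A733T than in WT (log2 fold change 1.99, SE 0.51, adjusted p = 0.00714), a call lost on leaving out WT replicate 2 (0.0502) or WT replicate 3 (0.0543), and the value was 2.80 without WT replicate 1. It was lower in het than in parental (log2 fold change -2.55, SE 0.59, adjusted p = 0.00703), with -3.25 without het replicate 1.

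Foxe1 (chr4:46343609-46346412, plus strand), a thyroid factor, had 1.09, 1.35 and 1.45 CPM in A733T, 1.19, 1.06 and 0.444 in parental, 0.382, 0.475 and 0.358 in WT and 0.429, 0.214 and 0.352 in het after ATRA. It was higher in A733T than in WT (log2 fold change 1.66, SE 0.39, adjusted p = 0.00349). The lower value in het than in parental (-1.42, adjusted p = 0.0282) was lost on leaving out any of 5 libraries, het replicates 1, 2 and 3 and parental replicates 1 and 2 (0.0544 to 0.206) and with DESeq2 (0.0532). The Weaver mean stood at -1.13, adjusted p = 0.0465 against WT and lost its call on leaving out any of 13 libraries, A677T replicates 1, 2 and 3, K563E replicates 1, 2 and 3, K634E replicates 1 and 2, R679C replicates 1 and 3 and WT replicates 1, 2 and 3 (0.0519 to 0.232), with DESeq2 (0.0575), when low counts were kept (0.0805) and with the GC correction (0.0808). Foxl2 (chr9:98955288-98958543, plus strand), a factor of the ovary, had 0.967, 0.763 and 0.535 CPM in A733T against 0.382, 0.119 and 0.224 in WT. That difference (1.68, adjusted p = 0.0246) was lost on leaving out any of 4 libraries, A733T replicates 1 and 2 and WT replicates 2 and 3 (0.0712 to 0.131). Foxf1 and Foxl1, neighbours of Foxc2 on chromosome 8, did not pass the filter and were also highest in A733T in ATRA, at 0.556 ± 0.182 and 0.3695 ± 0.194 CPM (SD, n = 3), against 0.144 ± 0.1198 and 0.0943 ± 0.04903 CPM in WT. In the same ATRA libraries of A733T, 6 trophoblast markers summed to 121 to 135 CPM against 59.8 to 69.0 CPM in WT, with Elf5 below 0.1 CPM in both, and 7 fibroblast markers summed to 8.71 to 13.2 CPM against 6.13 to 6.49 CPM, with Lum and Postn below 0.1 CPM in both. The 8 mesoderm markers summed to 14.2 to 16.5 CPM in A733T against 19.5 to 24.3 CPM in WT, and the Weaver lines had 26.4 to 45.9 CPM. The part of these cell types in the results was not tested.

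Foxq1 (chr13:31556134-31560976, plus strand), expressed in stomach and hair follicles, was close to absent before ATRA, with at most 0.212 CPM in any mESC library. In ATRA the WT libraries had 14.5, 12.7 and 15.9 CPM and those of A733T 12.9, 14.2 and 16.7 CPM. Those of parental had 9.52, 9.501 and 6.71 CPM and those of het 9.67, 8.08 and 7.29 CPM, and the Weaver libraries ran from 6.81 to 10.2 CPM with a median of 8.27, below every WT and A733T library. The Weaver mean was lower than WT (log2 fold change -0.77, SE 0.11, adjusted p = 6.97e-06), from -0.58 in A677T to -1.01 in K634E, and the A677T value did not pass with the GC correction (-0.42 (adjusted p = 0.0545)). WT exceeded het (log2 fold change 0.77, SE 0.14, adjusted p = 0.000374). The sum of the extraembryonic endoderm markers given above was likewise highest in WT and A733T in ATRA, and the part of these markers was not tested. Exons of A530084C06Rik overlap Foxq1 on the opposite strand over 3200 of its 4843 exon bases, and that gene had no count in any library. The second cDNA strand was made with dTTP, per the labels' protocols, which marks no strand, and reads in the overlap cannot be assigned to one gene.

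**Figure D3:**
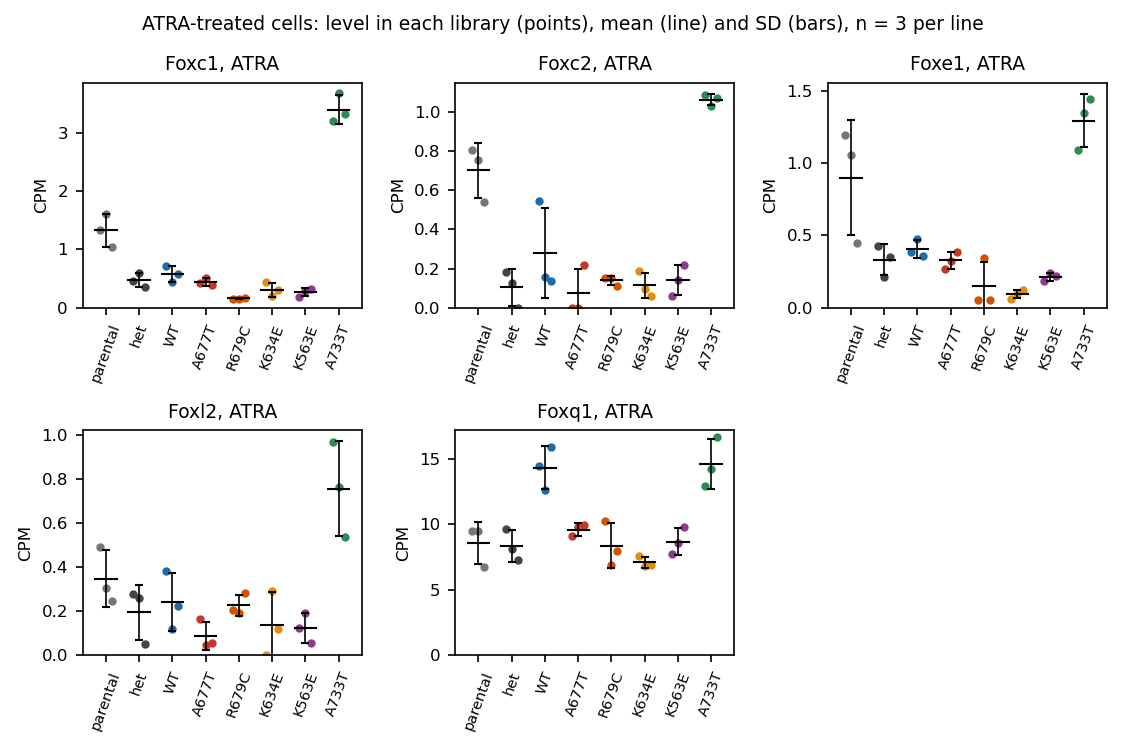
Level in CPM of Foxc1, Foxc2, Foxe1, Foxl2 and Foxq1 in each ATRA library (points), with the mean and SD of the 3 libraries of a line, on axes from 0. A733T lies above WT in every panel but that of Foxq1, where WT and A733T overlap and exceed the other lines.

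Among the remaining tissue factors, Foxa3 (chr7:19013284-19023538, minus strand), a factor of liver and gut endoderm, was low in the mean of the Weaver lines in both states. Singly, only A677T and K563E passed against WT in mESC and only R679C and K563E in ATRA. Each of these single calls was lost in at least 1 run that left out a library. In mESC Foxa3 had 2.53, 2.19 and 2.43 CPM in WT, and the Weaver libraries ran from 0.898 to 2.18 CPM with a median of 1.61. The difference (log2 fold change -0.57, SE 0.18, adjusted p = 0.00958) was lost on leaving out WT replicate 1 (0.0508) and with the GC correction (0.0889). Against het it was -0.66, adjusted p = 0.00227. In ATRA it was lower than in WT (-0.89, adjusted p = 0.0106), lost on leaving out WT replicate 2 (0.278), and lower than in het (log2 fold change -1.09, SE 0.23, adjusted p = 0.000416). The sum of the extraembryonic endoderm markers was lower in the same libraries, and the part of these markers was not tested. Foxj1 (chr11:116330704-116335399, minus strand), the regulator of motile cilia, had 0.317 to 1.58 CPM over the mESC libraries, and its lower value in the Weaver lines (-0.72, adjusted p = 0.0337) was lost on leaving out any of 4 libraries, K563E replicate 3, R679C replicate 2 and WT replicates 2 and 3 (0.0525 to 0.182), with DESeq2 (0.0513), when low counts were kept (0.0771) and with the GC correction (0.445). The value against het was -0.75, adjusted p = 0.0219, lost on leaving out het replicate 1 (0.0901) or het replicate 3 (0.0527), when low counts were kept (0.0512) and with the GC correction (0.279). In ATRA it was higher in A733T than in WT (1.07, adjusted p = 0.0116), lost on leaving out A733T replicate 2 (0.0707) or WT replicate 2 (0.0954). Foxd2 had at most 0.394 CPM in mESC and, in ATRA, 0.655, 0.435 and 0.582 CPM in WT, 0.306, 0.0855 and 0.0503 in het and values from 0.297 to 1.44 CPM with a median of 0.669 in the Weaver lines. The latter exceeded het (log2 fold change 1.89, SE 0.42, adjusted p = 0.000537), or by 3.08 without het replicate 1. WT exceeded het (1.69, adjusted p = 0.0213, or 2.88 without het replicate 1), lost on leaving out any of 4 libraries, WT replicates 1 and 3 and het replicates 2 and 3 (0.0671 to 0.101).

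Foxd3 (chr4:99656299-99658622, plus strand), which sustains pluripotent cells, is expressed throughout mESC. It had 26.7, 23.4 and 30.7 CPM in WT, 24.8, 23.97 and 17.7 in het and 22.6, 18.3 and 17.1 in parental, and the Weaver libraries ran from 14.7 to 26.2 CPM with a median of 19.3. The lower value in the Weaver lines (log2 fold change -0.45, SE 0.12, adjusted p = 0.00305) was not seen with the GC correction, which gave 0.044 (adjusted p = 0.677). The sum of the pluripotent markers was also lower in the Weaver lines than in WT in mESC, and the part of these markers was not tested. The Foxd3 transcript has a GC content of 65.1%. After ATRA it fell in WT (log2 fold change -3.14, SE 0.17, adjusted p = 6.1e-21), to 3.11, 3.36 and 2.68 CPM, and in parental (-2.12), to 5.27, 4.12 and 3.798 CPM. There the Weaver libraries ran from 3.103 to 5.54 CPM with a median of 4.55 and exceeded WT (log2 fold change 0.55, SE 0.14, adjusted p = 0.00451), with R679C at 0.62 (lost on leaving out R679C replicate 2 (0.0743) or WT replicate 3 (0.0869)) and K563E at 0.67. With the GC correction that value was 0.74 (adjusted p = 2.07e-05). The Weaver effect differed between states (log2 fold change 1.03, SE 0.19, adjusted p = 0.000216), and with the GC correction by 0.66 (adjusted p = 0.000842).

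Foxh1 (chr15:76668225-76669948, minus strand), the SMAD partner in Nodal signalling, had 50.8, 52.2 and 59.3 CPM in WT in mESC and was low in A733T, at 31.9, 38.8 and 35.98 CPM. A733T was below WT (log2 fold change -0.58, SE 0.15, adjusted p = 0.00868), a call lost on leaving out A733T replicate 1 (0.05398). The Weaver lines did not pass against WT (-0.24, adjusted p = 0.0925), and A677T alone (-0.39, adjusted p = 0.0362) lost its call on leaving out A677T replicate 3 (0.185), WT replicate 2 (0.0603) or WT replicate 3 (0.109), with only the groups compared (0.118) and with the GC correction (0.321). In ATRA the Weaver lines were below het (log2 fold change -0.38, SE 0.091, adjusted p = 0.00131), and K634E stood below WT (-0.41, adjusted p = 0.0243), lost on leaving out K634E replicate 3 (0.178) or WT replicate 2 (0.111), with only the groups compared (0.143) and with the GC correction (0.0936). The K634E libraries had 47.2, 49.98 and 30.1 CPM, of which the last is the library with the lowest GC correlation.

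Of the 4 FOXO genes, Foxo1 was higher in the mean of the Weaver lines in both states, Foxo4 was higher in ATRA and Foxo6 was lower in mESC. Foxo1 (chr3:52268336-52353221, plus strand) had 27.6, 31.01 and 29.5 CPM in WT in mESC, and every Weaver library was higher, with 46.7, 45.03 and 54.4 CPM in A677T and the other 3 lines between 35.0 and 43.2 CPM. The mean was 1.41-fold that of WT (log2 fold change 0.50, SE 0.07, adjusted p = 2.97e-06) and also exceeded het (log2 fold change 0.54, SE 0.07, adjusted p = 3.81e-07). In ATRA WT had 28.96, 30.2 and 31.4 CPM, het 36.1, 36.9 and 36.1 and A677T 40.9, 44.1 and 51.7, and the Weaver mean exceeded WT (log2 fold change 0.32, SE 0.07, adjusted p = 0.00157). Singly, R679C did not pass there (0.056, adjusted p = 0.765), and K634E (0.26, adjusted p = 0.0435) was lost on leaving out K634E replicate 3 (0.354), WT replicate 1 (0.1401) or WT replicate 2 (0.124), when low counts were kept (0.103) and with only the groups compared (0.204). WT was the lowest line there, overlapping R679C. It was below het (-0.26, adjusted p = 0.0356), a call lost on leaving out any of 6 libraries, WT replicates 1, 2 and 3 and het replicates 1, 2 and 3 (0.0526 to 0.127), and the Weaver mean did not pass against het (0.053, adjusted p = 0.554). The exons of Gm20402 overlap Foxo1 on the opposite strand over 674 bases.

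Foxo4 (chrX:101254528-101260873, plus strand) had 104, 104 and 94.7 CPM in WT in ATRA against 159.8, 168 and 147 in A677T and 129, 135 and 118 in R679C. The Weaver mean was higher than WT (log2 fold change 0.36, SE 0.059, adjusted p = 5.45e-05) and than het (log2 fold change 0.34, SE 0.058, adjusted p = 2.78e-05), while K634E alone did not pass (0.14, adjusted p = 0.207). In mESC the Weaver value against WT was 0.11, adjusted p = 0.254, and 0.41 (adjusted p = 2.26e-08) with the GC correction, while against het it was 0.33, adjusted p = 0.000735. A733T was below WT in mESC (log2 fold change -0.33, SE 0.094, adjusted p = 0.0153), lost on leaving out WT replicate 1 (0.0542). Foxo4 rose with ATRA in WT (log2 fold change 0.84, SE 0.088, adjusted p = 2.01e-11) and in parental (1.02). Foxo6 (chr4:120267079-120287349, minus strand), a FOXO protein of the brain, had 4.199, 3.43 and 4.87 CPM in WT and 3.396, 3.79 and 3.64 in het in mESC. All Weaver libraries were lower, from 0.945 to 2.46 CPM with a median of 1.84. The difference was 2.33-fold (log2 fold change -1.22, SE 0.16, adjusted p = 1.27e-06), and with the GC correction -0.73 (adjusted p = 7.88e-05). K634E alone lost its call with the GC correction (0.233). The Weaver mean was also below het in mESC (-1.02). Foxo6 fell with ATRA in WT (log2 fold change -1.92, SE 0.24, adjusted p = 2.64e-09), and het was below parental in ATRA (-0.94, adjusted p = 0.0418), lost on leaving out any of 5 libraries, het replicates 1, 2 and 3 and parental replicates 1 and 2 (0.0599 to 0.2697), with DESeq2 (0.05001), when low counts were kept (0.0722) and with the GC correction (0.05801).

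Foxo3 (chr10:42181841-42276755, minus strand), which ranged over 87.4 to 118 CPM in mESC and over 64.2 to 96.5 CPM in ATRA, differed by less between lines without the GC correction. A677T exceeded WT in mESC (log2 fold change 0.24, SE 0.062, adjusted p = 0.00302) and in ATRA (0.30). With the GC correction the mESC value of A677T was 0.68 (adjusted p = 3.54e-07). The Weaver mean stood at 0.15, adjusted p = 0.0363 in ATRA, lost on leaving out any of 5 libraries, K563E replicates 2 and 3, R679C replicate 1 and WT replicates 2 and 3 (0.0548 to 0.214), when low counts were kept (0.152) and with only the groups compared (0.0584). WT was below het in ATRA (-0.25, adjusted p = 0.00803), lost on leaving out WT replicate 3 (0.0617) and with the GC correction (0.101), and A733T stood above WT (0.19, adjusted p = 0.0432), lost on leaving out any of 5 libraries, A733T replicates 1, 2 and 3 and WT replicates 2 and 3 (0.0562 to 0.265), when low counts were kept (0.227) and with the GC correction (0.669). Foxo3 fell with ATRA in WT (log2 fold change -0.53, SE 0.063, adjusted p = 6.19e-10).

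Foxp1 (chr6:98925338-99522721, minus strand), a repressor with roles in heart, lung and brain, rose most with ATRA among the widely expressed members. It was higher in the mean of the Weaver lines than in WT in both states. In mESC WT had 35.6, 38.1 and 30.2 CPM, het 34.9, 37.3 and 40.1, A733T 29.3, 29.6 and 31.97 and parental 27.1, 24.3 and 27.6 CPM. The Weaver lines had 83.2, 73.6 and 94.5 CPM in A677T, 54.9, 63.5 and 58.6 in R679C, 56.2, 58.9 and 57.5 in K634E and 63.4, 63.4 and 74.9 in K563E, all above the other 12 libraries. The mean was 1.95-fold that of WT (log2 fold change 0.97, SE 0.081, adjusted p = 5.32e-10) and 1.81-fold that of het (0.86). In ATRA WT had 347, 324 and 350.3 CPM, A733T 266, 253 and 273, parental 289, 295 and 292 and the Weaver libraries values from 350.4 to 476 CPM with a median of 408. The Weaver mean exceeded WT (log2 fold change 0.28, SE 0.056, adjusted p = 0.000514) and het (0.26), A733T was below WT (log2 fold change -0.37, SE 0.07, adjusted p = 0.000455), and the Weaver effect was smaller in ATRA than in mESC (log2 fold change -0.65, SE 0.091, adjusted p = 1.52e-06). Singly, R679C did not pass against WT in ATRA. The A677T call there was lost on leaving out A677T replicate 3 (0.0636) or WT replicate 2 (0.0538). That of K634E was lost with only the groups compared (0.0653).

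Het exceeded parental for Foxp1 in mESC (log2 fold change 0.50, SE 0.10, adjusted p = 0.00271). In ATRA the value was 0.24, adjusted p = 0.0344, lost on leaving out any of 6 libraries, het replicates 1, 2 and 3 and parental replicates 1, 2 and 3 (0.0635 to 0.125). Foxp1, Foxm1 and Ezh2 all lie on chromosome 6. Foxi3, Foxj2 and Foxp2 lie there too and were not called for het against parental in either state. Over the 773 genes tested there, the median log2 fold change of het against parental was 0.083 in mESC, against -0.022 to 0.022 on the other chromosomes, and in ATRA it was 0.090 over 872 genes, against -0.029 to 0.027. The part of this shift of the chromosome in the Foxp1 and Foxm1 values was not tested. With ATRA Foxp1 rose 9.81-fold in WT (log2 fold change 3.29, SE 0.087, adjusted p = 6.45e-33) and 11.1-fold in parental (3.47).

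Foxp4 (chr17:47867133-47924645, minus strand), a repressor of lung and gut, had 225, 226 and 259 CPM in WT in mESC, and the Weaver libraries ran from 145 to 224 CPM with a median of 194. The value of log2 fold change -0.27, SE 0.076, adjusted p = 0.00547 turned with the GC correction, to 0.20 (adjusted p = 2.05e-05), and was lost without WT replicate 3 (0.0576). No direction is therefore given for Foxp4 in the Weaver lines. A733T was lower than WT in mESC under both (log2 fold change -0.67, SE 0.10, adjusted p = 2.49e-05, or -0.60 with the GC correction), at 136, 156 and 148 CPM. In ATRA that value was -0.27, adjusted p = 0.0427, lost on leaving out any of 5 libraries, A733T replicates 1, 2 and 3 and WT replicates 1 and 2 (0.06399 to 0.155). Foxp4 fell with ATRA in WT (log2 fold change -1.01, SE 0.11, adjusted p = 4.67e-11) and in parental (-0.96). Foxp2 (chr6:14901349-15441977, plus strand), known for its role in neural circuits of vocal learning, was not tested in mESC. In ATRA it had 0.545, 0.633 and 0.537 CPM in WT, 1.49, 1.36 and 1.903 in K634E and 0.977, 1.96 and 1.15 in K563E. K634E exceeded WT (log2 fold change 1.46, SE 0.35, adjusted p = 0.00492), as did K563E (1.26, adjusted p = 0.0106), the latter call being lost on leaving out K563E replicate 2 (0.119). Foxp3, the factor of regulatory T cells, was at 0.108 to 1.33 CPM in mESC and shares exon bases with Ccdc22, Ppp1r3f, Flicr and Gm36995, so its counts are uncertain. Its lower value in the Weaver lines than in het (-1.04, adjusted p = 0.0254) was lost on leaving out het replicate 3 (0.326) and with the GC correction (0.109).

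The broadly expressed Foxm1, Foxk, Foxj2, Foxj3, Foxn2 and Foxn3 genes were present in every line. Line means in ATRA ran from 43.2 to 65.4 CPM for Foxn2 and from 42.3 to 61.0 CPM for Foxn3. Those of Foxk1 in mESC ran from 39.1 to 55.1 CPM. Foxm1 (chr6:128362967-128376146, plus strand), the mitotic factor, ranged over 136 to 166 CPM in mESC. In ATRA it ranged over 130.3 to 178 CPM. It passed in 1 comparison of lines, het against parental in ATRA (0.22, adjusted p = 0.0223), lost on leaving out any of 5 libraries, het replicates 1, 2 and 3 and parental replicates 1 and 2 (0.0505 to 0.0931) and when low counts were kept (0.0691). Foxk2 (chr11:121259990-121309896, plus strand) passed in no comparison of lines and had 92.4 to 108 CPM in mESC and 105 to 133 CPM in ATRA. Foxk1 (chr5:142401497-142462011, plus strand), like Foxk2 a partner of the SIN3 corepressor, was lower in A733T (38.4, 41.8 and 36.9 CPM) than in WT (51.05, 50.1 and 53.9 CPM) in mESC (log2 fold change -0.38, SE 0.09, adjusted p = 0.00367). It was higher in the Weaver lines than in het (0.23, adjusted p = 0.00754), lost on leaving out het replicate 1 (0.127), and higher in R679C than in WT in ATRA (0.29, adjusted p = 0.0129), lost on leaving out R679C replicate 1 (0.0699), R679C replicate 2 (0.1304) or WT replicate 3 (0.0876) and with only the groups compared (0.0675). Foxj2 was lower in the Weaver lines than in het in ATRA (log2 fold change -0.34, SE 0.08, adjusted p = 0.00102).

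Foxn3 (chr12:99190078-99563582, minus strand), a checkpoint repressor, was higher in the Weaver lines than in WT in ATRA (log2 fold change 0.26, SE 0.057, adjusted p = 0.001499). The mESC value was 0.27, adjusted p = 0.00387, and that call was lost on leaving out WT replicate 3 (0.0537). A677T led, with 61.6, 58.4 and 63.1 CPM in ATRA against 46.6, 43.9 and 43.7 in WT. Foxj3 (0.22, adjusted p = 0.003096) and Foxn2 (0.29, adjusted p = 0.00349) were higher in the Weaver lines than in WT in mESC. With the GC correction they had 0.033 (adjusted p = 0.575) and 0.11 (adjusted p = 0.0809), and Foxn2 was also lost on leaving out WT replicate 3 (0.068). These 2 transcripts are GC-poor, at 44.3% and 44.4%. Against het, Foxn2 was higher in the Weaver lines in mESC without and with the correction (0.32 and 0.17). It was also higher in ATRA (0.36, adjusted p = 0.0138), lost on leaving out het replicate 2 (0.0841) or het replicate 3 (0.0856). In ATRA Foxn2 was lower in A733T than in WT (-0.47, adjusted p = 0.0271), lost on leaving out any of 4 libraries, A733T replicates 1 and 2 and WT replicates 1 and 3 (0.0625 to 0.131). With the GC correction 7 members that had not passed in mESC were higher in the Weaver lines than in WT, which were Foxk1 (0.36), Foxk2 (0.21), Foxj2 (0.23), Foxm1 (0.26), Foxo3 (0.38), Foxo4 (0.41) and Foxh1 (0.16), and Foxp4 turned to the same side.

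Foxr1 and Foxr2, genes with germline expression, were at 0.702 to 2.52 CPM and 2.21 to 4.49 CPM in mESC. Foxr2 (chrX:153118786-153132861, plus strand) was lower in A733T than in WT in ATRA (log2 fold change -0.87, SE 0.15, adjusted p = 0.000188), with 4.23, 4.09 and 3.75 against 8.51, 5.85 and 7.78 CPM, and it rose with ATRA in WT (log2 fold change 1.28, SE 0.15, adjusted p = 1.05e-09). Foxr1 stood higher in A733T than in WT in mESC (0.80, adjusted p = 0.0475), lost on leaving out any of 5 libraries, A733T replicates 1 and 3 and WT replicates 1, 2 and 3 (0.0828 to 0.193), with DESeq2 (0.0576) and when low counts were kept (0.0727).

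**Figure D4:**
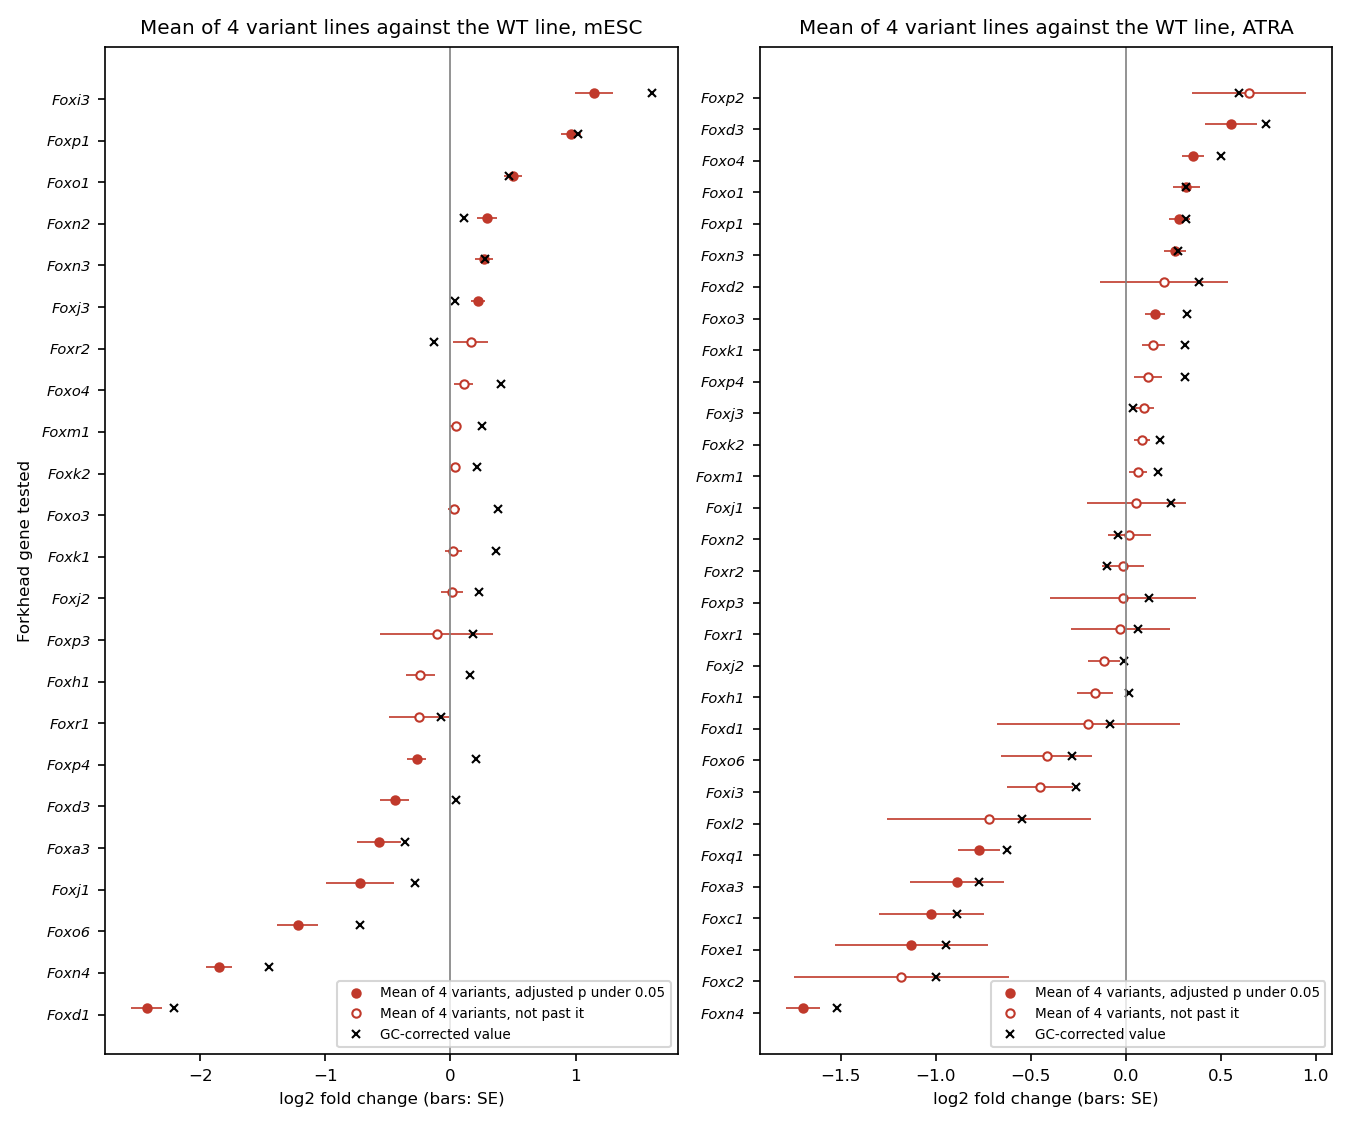
Difference of the 4 Weaver lines, averaged, from WT (log2 fold change) for the members tested in mESC (left, 23 drawn) and ATRA (right, 30 drawn), with SE bars, filled where the adjusted p is under 0.05; crosses give the GC-corrected value. Foxd1, Foxn4, Foxi3, Foxp1 and Foxo1 keep their side in mESC, whereas the crosses of Foxp4 and Foxd3 lie on the other side of 0.

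From mESC to ATRA, 13 of 31 members tested rose in WT (29.8% of all genes) and 6 fell (29.2%). In parental, 14 rose (28.6%) and 7 fell (26.5%), or 11 and 9 with the GC correction (26.7% and 34.99% of all genes). The 2 comparisons share no library. Foxq1 had 1 count in the 3 WT libraries of mESC and 941 in ATRA, a ratio of 839 with a 95% interval of 150 to 33184 that covers counting error only. In parental it had 5 counts and 596. Foxp2 had no count in WT in mESC, which makes it at least 11.3-fold higher in ATRA (with 3 counts over the group as the floor), and Foxl2 likewise at least 4.46-fold higher. Foxc1 had 3 counts in WT in mESC and 37 in ATRA, a ratio of 11.0 (95% interval 3.48 to 55.8). Together with Foxp1, Foxo4, Foxr2 and Foxn4, given above, Foxd2 (1.66, adjusted p = 0.00854, lost on leaving out mESC WT replicate 3 (0.0559)), Foxn3 (0.26, adjusted p = 0.004297), Foxk2 (0.20, adjusted p = 0.000615, lost when low counts were kept (0.0606)) and Foxj3 (0.16, adjusted p = 0.0386, lost on leaving out ATRA WT replicate 2 (0.123), mESC WT replicate 1 (0.0781) or mESC WT replicate 2 (0.0646), when low counts were kept (0.206) and with the GC correction (0.511)) are among the 13 that rose in WT.

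The 6 that fell in WT were Foxd1, Foxd3, Foxo6, Foxa3 (-1.28, adjusted p = 1.77e-05), Foxp4 and Foxo3, and all of them fell in parental too, where Foxn4 fell as well. Foxd1 fell by 4.93 in WT and by 1.55 in parental on the log2 scale, from levels in mESC that differed between these lines. Rises in parental but not past the threshold in WT were those of Foxo1 (0.33, adjusted p = 0.000962), Foxk1 (0.33, adjusted p = 0.00156), Foxh1 (0.47, adjusted p = 0.00781, lost on leaving out ATRA parental replicate 1 (0.0745)), Foxi3 (0.58, adjusted p = 0.0152, lost on leaving out ATRA parental replicate 2 (0.0601) or mESC parental replicate 2 (0.0847) and with the GC correction (0.136)) and Foxc2 (1.31, adjusted p = 0.0465, lost on leaving out ATRA parental replicate 1 (0.1299), ATRA parental replicate 2 (0.0936) or mESC parental replicate 1 (0.311), with DESeq2 (0.07496), when low counts were kept (0.0908) and with the GC correction (0.0878)). Whether these differ between the lines was not tested. Over both states, 3 members had a higher Weaver effect in ATRA than in mESC (4.54% of all genes) and 2 a lower one (2.53%), which are Foxd1 (2.25, adjusted p = 0.000401, or 2.97 without ATRA WT replicate 2), Foxd3, Foxp4, Foxi3 and Foxp1. Foxp4 (0.42, adjusted p = 0.0191) was lost on leaving out ATRA WT replicate 3 (0.102) or mESC WT replicate 3 (0.206), with only the groups compared (0.0543) and with the GC correction (0.3804).

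**Figure D5:**
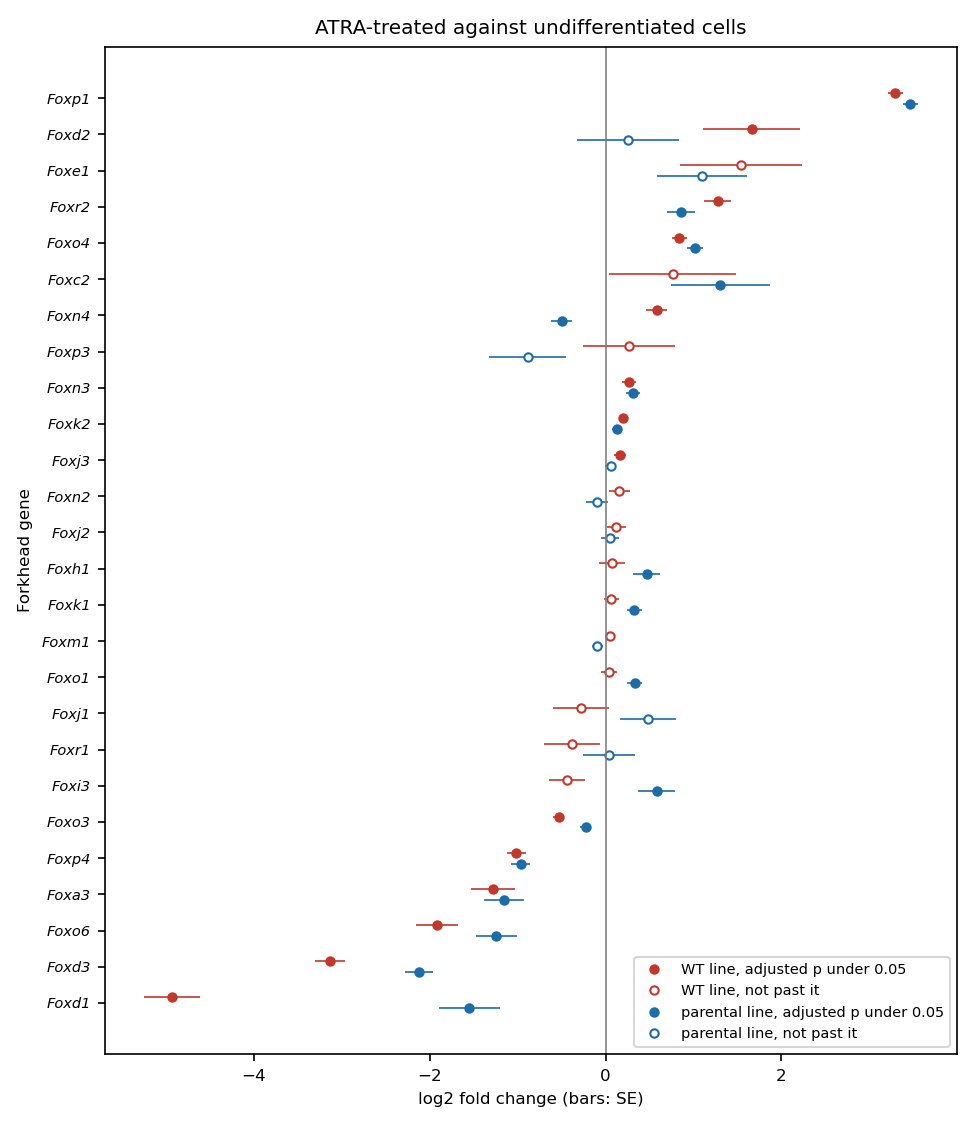
Log2 fold change from mESC to ATRA in WT and in parental cells for 26 members, with SE bars, filled where the adjusted p is under 0.05; the 4 members with 3 counts or fewer in a group (Foxq1, Foxp2, Foxl2 and Foxc1) are left out. Foxp1 rose most in both lines, and Foxn4 lies on opposite sides of 0.

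Genes that act with forkhead proteins were taken from lists and are given by count, with log2 fold changes for those named. For the Weaver lines against WT in mESC, 21.4% of all genes were higher and 22.9% lower, or 21.96% and 16.5% with the GC correction, and the counts of this comparison are to be read beside these shares. Of 14 regulators of FOXO activity, 6 were higher in the Weaver lines than in WT in mESC (among them Sirt1, at 0.58, Pik3ca, Pik3cb and Pdpk1) and none lower. The list's median log2 fold change was 0.15, against -0.0047 over all genes tested. With the GC correction 5 were higher and 1 lower, and Sirt1 and Pik3cb were higher under both. SIRT1 deacetylates FOXO proteins, and PIK3CA and PIK3CB are catalytic subunits of the PI3 kinase that acts upstream of AKT. Of 21 FOXO targets, 6 were higher (such as Gadd45a, 0.43) and 6 lower (such as Trim63, -1.02) in that comparison. In ATRA 10 of the 21 were higher in A733T than in WT and none lower, or 9 and 1 with the GC correction, against 10.4% and 7.33% of all genes, or 11.1% and 17.99% with the correction. Among the 10 were Klf6 at 0.81, Ccng2 at 0.66 and Cdkn1b, an inhibitor of the cell cycle, at 0.30. The list's median there was 0.23, against 0.020 over all genes tested, while no FOXO gene was higher in A733T but Foxo3, whose call is uncertain. WT was lower than het for 9 of the 21 in ATRA and higher for 1, or 9 and 2 with the GC correction. Of all genes 8.74% were lower and 7.64% higher, or 11.9% and 13.3% with the correction. The comparisons of A733T with WT and of WT with het use the same WT libraries.

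Of 18 FOXM1 targets, 5 were higher in the Weaver lines than in WT in mESC and none lower, with a median of 0.032, and with the GC correction 7 were higher and 2 lower. Skp2 (0.32), which marks CDK inhibitors for destruction, and Cks1b were higher under both. Of 12 FOXH1 partners and targets, 11 were tested in mESC, and 2 were higher and 4 lower, or 3 and 2 with the GC correction. Lefty1 (-0.64) and Lefty2 (-0.61), the secreted antagonists of Nodal, were lower and Smad4 (0.41) was higher in the Weaver lines under both. In ATRA Lefty2 was lower as well (-1.08). Of 12 ciliary targets of FOXJ1, 7 were tested in mESC, with 1 higher and 1 lower (Rsph1, -0.68), or 2 and 1 with the GC correction. Of 7 corepressors that act with FOXP proteins, 2 were higher in mESC and none lower, or 4 and none with the GC correction, with Ctbp2 under both. The medians of the FOXH1, FOXJ1 and FOXP lists were -0.20, 0.03 and 0.061.

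The same lists in ATRA are given for the Weaver lines against WT, where 8.43% of all genes were higher and 12.1% lower, or 16.3% and 12.2% with the GC correction. FOXO regulators had 3 higher and 2 lower of 14 (5 and 2 with the GC correction), with a median of 0.075, and FOXO targets had 5 higher and 4 lower of 21 (7 and 4 with the GC correction), with a median of 0.075. FOXM1 targets had 1 higher and 0 lower of 18 (3 and 4 with the GC correction) and FOXH1 partners and targets had 1 higher and 2 lower of 10 (3 and 3 with the GC correction). FOXJ1 ciliary targets had 1 higher and 1 lower of 9 (2 and 1 with the GC correction) and FOXP corepressors had 1 higher and 0 lower of 7 (4 and 0 with the GC correction). From mESC to ATRA in WT, 29.8% of all genes rose and 29.2% fell, or 27.4% and 36.9% with the GC correction. FOXO regulators had 9 higher and 3 lower of 14 (8 and 5 with the GC correction), among them Pik3r1 (2.16), a regulatory subunit of PI3 kinase. FOXO targets had 10 higher and 6 lower of 21 (9 and 7 with the GC correction), among them Fbxo32 (1.96), a ubiquitin ligase of muscle wasting. FOXM1 targets had 4 higher and 2 lower of 18 (4 and 10 with the GC correction). FOXH1 partners and targets had 6 higher and 4 lower of 11 (6 and 5 with the GC correction), with Lefty1 (3.44) higher and Gsc (-2.27), a gene of the organizer, lower after ATRA.

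The 11 members that passed the filter in no fit were Foxb1, Foxb2, Foxd4, Foxe3, Foxf1, Foxf2, Foxi1, Foxi2, Foxl1, Foxn1 and Foxs1. Foxi1 and Foxl1 had no count in any of the 24 mESC libraries, and Foxi1 had counts in 1 ATRA library. Foxl1 had counts in 18 ATRA libraries, Foxf1 in 23, Foxf2 in 19 and Foxd4 in 20, with highest library values of 0.544, 0.763, 0.449 and 0.423 CPM. Foxb1 had counts in 1 mESC library and 14 ATRA libraries, Foxi2 in 2 and 15 and Foxs1 in 4 and 16. Foxn1, the thymus factor, had counts in 12 mESC and 10 ATRA libraries, Foxb2 in 3 and 5 and Foxe3 in 2 and 6, none above 0.182 CPM. These members were not tested.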

How the data were processed

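Poly(A) RNA of mouse embryonic stem cells was sequenced in 54 samples in groups of 3. The authors deposited raw counts of reads per gene, and the tools named, per the submitters' processing notes, are featureCounts 1.6.4, STAR 2.7.3a, cutadapt 3.2 and DESeq2 1.38.3, with the build mm10. The strand setting of the counting is not given in the sources used here. Columns were matched to samples by name. Of 54 columns, 6 matched no label and were not used, so Y728 was not analysed here and the mean over Weaver lines, planned with Y728, holds 4 lines. Identifiers were matched without their version to GENCODE M21 (55141 of 55401 found), and all 42 members have a GC value. Each state was fitted with edgeR 4.0.16 in R 4.3.3 (filterByExpr, TMM, robust quasi-likelihood test) on 24 libraries with 1 mean per line and 16 residual degrees of freedom, and comparisons of states on 48 libraries. The test was also run on simulated counts that held no GC trend and no replicate batch, so that run does not cover either. Levels are CPM with TMM factors over the 48 libraries. In all 21 comparisons were made.

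The 48 pairs of libraries within a group differed by more than counting error (chi-square per degree of freedom of 2.81 to 39.5). Intervals and floors (3 counts) cover counting error only. Alternatives were DESeq2 1.42.0, no filter, only the groups compared, a GC correction (natural spline with 5 degrees of freedom, on genes of at least 1 CPM), a replicate block, both together, and leaving out each library. Values per library are given for called members of at least 1 CPM whose groups do not overlap or whose 4 Weaver lines lie on 1 side of WT, up to 6 per direction in the main comparisons and 3 in the others. Values of lower members, such as Foxc2, Foxe1 and Foxl2, were added after they were seen, as were those of Foxh1, Foxd2 and Foxp2. Results of a few genes are counted but not reported by name here. The members and lists were chosen with earlier results of these data known.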

Additional observations from a re-analysis of the deposited data

Results flagged for a closer look

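For 5 members the difference between the Weaver lines and WT was itself different in the 2 states, by the interaction term of edgeR's quasi-likelihood test with Benjamini-Hochberg adjustment. Values are ATRA minus mESC on the log2 scale. Over 10888 genes such values had a Spearman correlation of 0.60 with transcript GC. With the GC correction 4 of the 5 calls held, all but that of Foxp4. Foxd1 had 2.25 (SE 0.44, adjusted p = 0.000401), from -2.43 in mESC to -0.20 in ATRA, where its levels were at most 1.26 CPM in any library. Its interaction value was 2.97 without ATRA WT replicate 2. Foxi3 had -1.56 (SE 0.23, adjusted p = 6.17e-06), from 1.15 to -0.45. Foxd3 had 1.03 (SE 0.19, adjusted p = 0.000216), from -0.45 to 0.55, and 0.66 with the GC correction. Foxp1 had -0.65 (SE 0.091, adjusted p = 1.52e-06), from 0.97 to 0.28. Foxp4 had 0.42 (SE 0.12, adjusted p = 0.0191), from -0.27 to 0.12, and 0.083 with the GC correction.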

How the results depend on the processing

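Of 205 calls of members over the 21 comparisons, 125 held in every alternative run. The GC correction lost 32 and turned 7, no filter lost 22, only the groups compared 13 of 189 that could be fitted, and DESeq2 9 of 204. Counts of changed members stayed within 1.5 times in 282 of 312 alternatives. With the GC correction the count was 13 for R679C against WT in mESC (reported 6), 4 for het against parental in mESC (2), 5 for WT against het in mESC (3), 13 for K634E (8) and 14 for K563E (8) against WT in ATRA. With only the groups compared it was 8 for WT against het in mESC, 4 for R679C (7) and 3 for K634E against WT in ATRA. Leaving out 1 library gave 6 to 11 for K634E (11) and 6 to 10 for K563E (10) against WT, 1 to 2 for het against parental and 1 to 3 for WT against het in mESC. In ATRA it gave 4 to 8 for K634E and 7 to 10 for A733T (12) against WT, 3 to 6 for het against parental (8) and 2 to 5 for WT against het (6). Values that turned with the GC correction, alone and with the replicate block, were those in mESC of Foxd3 in the Weaver mean (0.0436 and 0.0396) and in K563E (0.0699 and 0.0665), of Foxp4 in the Weaver mean (0.204 and 0.204), A677T (0.248 and 0.248) and K634E (0.157 and 0.157) and of Foxh1 in A677T (0.0974 and 0.0945), and that of Foxj3 from mESC to ATRA in WT (-0.0423 and -0.0424). Their transcript GC content is the quantity the correction uses, and the cause beyond that was not tested. Replicate numbers were not taken as pairs, since not every same-numbered pair of libraries of different lines correlated above 0.1 (34 of 84 pairs in mESC and 49 of 84 in ATRA did). Their median correlation was 0.068 in mESC (-0.29 to 0.54) and 0.125 in ATRA (-0.21 to 0.53), against -0.040 and -0.058 for libraries with different numbers. In ATRA replicate 3 had the lowest GC correlation in WT and in every line with a substitution, but not in het or parental. Whether libraries of the same number share a batch was not tested. The replicate block alone lost 1 call. With the block and the GC correction the counts were 12 for R679C, 4 for het against parental and 5 for WT against het in mESC, and 11 for R679C, 13 for K634E, 14 for K563E and 14 for het against parental in ATRA. Levels without TMM factors were 0.934 to 1.09 times those given. Members below 1 CPM rest on few counts, which limits what their comparisons can show.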
